A study of Homo sapiens with 16 samples.

Results

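MYB, the human gene for the transcription factor c-Myb, was measured by 2 of the 9554 probe sets analysed here, both annotated to MYB alone. The gene was chosen by its measured intensities over the 6 groups of arrays: higher at 24 h than at 6 h in cells with DMSO, level with time in cells with ICG-001, and low after CTNNB1 siRNA. These same values are therefore given below as a description, with no test. Tests were made only for other genes.

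c-Myb binds DNA through tryptophan-rich repeats and activates transcription through a short segment that docks onto the KIX domain of the coactivators CBP and p300. It is best known for keeping blood progenitors dividing and undifferentiated, and it is also needed in the progenitors of the mouse colonic crypt. The gene is switched on in several leukaemias and in some epithelial cancers, and its described targets include genes of the cell cycle, of cell survival and of progenitor identity.

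The labels name all cells as AsPC-1, an established line from a human pancreatic adenocarcinoma, grown in RPMI medium with serum. In the drug experiment they received 10 µM ICG-001 for 24 h or for 6 h, or its vehicle DMSO for 24 h or for 6 h, and each of these 4 groups had 3 arrays. ICG-001 is a small molecule described to bind CBP and to block its contact with β-catenin, the coactivator that carries the Wnt signal to TCF/LEF factors. In a separate experiment the cells were transfected with a lipofectamine reagent and 20 nM CTNNB1 siRNA, directed at the β-catenin gene, or with 20 nM control siRNA, and RNA was taken at 48 h, with 2 arrays in each group. The labels call the arrays biological replicates without saying whether they came from separate cultures, so the spread between them may be technical, and their number limits the precision of every value. The table analysed here had no probe set for CTNNB1 alone, and the knockdown itself was not checked.

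The siRNA arrays stood apart from the drug arrays. Median intensity was 12.7 to 13 on the siRNA arrays and 20.6 to 28.6 on the drug arrays. The first principal component held 74.1% of the variance, with the 4 siRNA arrays between -65.6 and -64.01 and the 12 drug arrays between 19.67 and 24.15. Values of 2407 probe sets were lower, and of 960 higher, by at least 1 log2 unit on the siRNA arrays than on the drug arrays. CDH1, the epithelial cadherin, read 8.68 to 16.62 on the siRNA arrays and 272.68 to 370.97 on the drug arrays. Of 8 epithelial markers 4 were measured (CDH1, KRT7, KRT19 and MUC1), with summed intensities of 400 to 552 on the siRNA arrays and 2440 to 3340 on the drug arrays. The cause of this split was not tested, and whether both experiments used the same stock of cells was not checked. Tests between groups were made only within each experiment. The normalization and the estimate of spread used in the tests nevertheless drew on all 16 arrays. Levels and correlations given over all 16 arrays span the split. Of 12 leukocyte markers 3 were measured (PTPRC, MS4A1 and CD79A), and their summed intensity stayed between 17.1 and 50.6 on all 16 arrays.

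The RefSeq annotation of GRCh38.p14 places MYB on the plus strand of chromosome 6, from base 135181308 to base 135219172, a span of 37865 bases. The promoter is shown because E2F factors, and TCF/LEF factors with β-catenin, are among the described regulators of MYB, and members of both families were measured or targeted here. The 250 bases before the annotated start, chr6:135181058-135181307 of GRCh38.p14 from RefSeq, read 5′ to 3′ on the plus strand as follows, with matches to the E2F and TCF/LEF motifs in capitals.
MYB promoter: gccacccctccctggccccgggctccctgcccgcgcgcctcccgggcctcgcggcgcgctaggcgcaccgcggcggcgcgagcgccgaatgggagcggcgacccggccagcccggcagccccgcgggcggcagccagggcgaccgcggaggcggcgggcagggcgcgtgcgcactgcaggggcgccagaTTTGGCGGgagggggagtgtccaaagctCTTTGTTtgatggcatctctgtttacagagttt

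The first match, TTTGGCGG, is an E2F motif at bases 61 to 54 before the start, and the second, CTTTGTT, is a TCF/LEF motif at bases 33 to 27 before the start. The letters searched on both strands were TTTCCCGC, TTTCCCGG, TTTCGCGC, TTTCGCGG, TTTGCCGC, TTTGCCGG, TTTGGCGC and TTTGGCGG for E2F, CTTTG followed by AA, AT, TA or TT for TCF/LEF, and CAACNG and TAACNG for c-Myb itself. The 2 matches did not overlap, and neither CAACNG nor TAACNG was found in these 250 bases. Over 27305 promoters of the same length, 5.2% held an E2F motif, 12.1% a TCF/LEF motif and 39.4% a c-Myb motif. A match is a run of letters in this window, and no binding was measured.

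MYB intensity was low on every array with ICG-001 and highest on the arrays with DMSO at 24 h. The brighter of its 2 probe sets read 53.94, 44.53 and 52.19 with ICG-001 at 24 h (50.2 ± 5.0, SD, n = 3) and 371.57, 354.35 and 338.68 with DMSO at 24 h (355 ± 16.5, SD, n = 3). At 6 h it read 52.65, 40.48 and 45.93 with ICG-001 (46.4 ± 6.1, SD, n = 3) and 100.62, 117.28 and 100.08 with DMSO (106 ± 9.78, SD, n = 3). At each time all 3 ICG-001 arrays lay below all 3 DMSO arrays, and the gap was far wider at 24 h. Between the times, the 24 h arrays with DMSO all lay above the 6 h arrays, whereas the ICG-001 arrays of the 2 times overlapped.

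In the siRNA experiment MYB read 44.04 and 59.3 after CTNNB1 siRNA (51.7 ± 10.8, SD, n = 2) and 175.73 and 362.63 after control siRNA (269 ± 132, SD, n = 2). Both CTNNB1 siRNA arrays lay below both control arrays, but the control arrays differed 2.06-fold from each other. That is a difference of 0.89 log2 between replicates 2 and 1 of the control, against 0.29 between those of CTNNB1 siRNA. Among the 329 genes within 0.5 log2 of the MYB level on the control arrays, MYB had the widest gap between these 2 arrays (median gap 0.13). Among all 5250 genes its gap ranked 359.

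**Figure D1:**
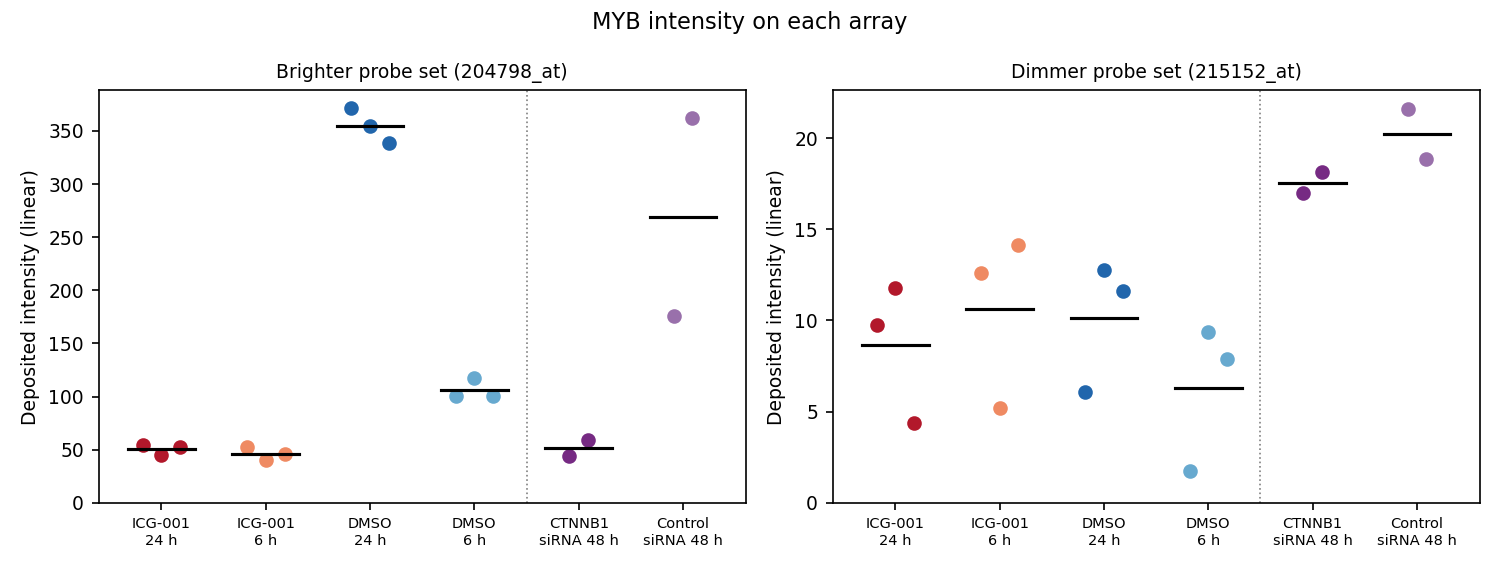
Deposited intensity (linear axis from 0) of the 2 MYB probe sets on each of the 16 arrays, 1 point per array and a line at each group mean; the dotted line divides the drug arrays from the siRNA arrays. On the brighter probe set the arrays with ICG-001 lie between 40.48 and 53.94 and those with DMSO at 24 h between 338.68 and 371.57; the dimmer one stays at or below 21.62 throughout.

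Expressed as log2(intensity + 16) after quantile normalization, MYB was lower with ICG-001 than with DMSO, with a log2 difference of -2.77 at 24 h and -1.0 at 6 h. The deposited means in DMSO were 7.07 times those in ICG-001 at 24 h and 2.29 times at 6 h. CTNNB1 siRNA against control siRNA gave a log2 difference of -1.69, with a control mean 5.21 times the CTNNB1 siRNA mean, and -1.23 when control replicate 2 was left out. With DMSO the 24 h arrays exceeded the 6 h arrays by 1.74 log2, or 3.35-fold in deposited means. With ICG-001 the 24 h arrays differed from the 6 h arrays by -0.04 log2 after normalization. The deposited mean in ICG-001 at 24 h was 1.08 times that at 6 h, so the sign of this small difference depended on the scaling. The ICG-001 difference at 24 h minus that at 6 h was -1.77. These comparisons share groups of arrays, so their values are not independent of each other.

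Set among the 5250 genes with 1 kept probe set, these are large values. MYB was chosen for this pattern, so its ranks and its place in the counts below describe that choice and test nothing. MYB ranked 4 from the most lowered with ICG-001 at 24 h, 54 at 6 h, and 9 after CTNNB1 siRNA, and 3 from the most raised with time in DMSO. In all, 27 genes were higher by at least 1 log2 at 24 h than at 6 h in DMSO. Of these, 5 (AKAP19, MYB, PNRC1, RGCC and SOSTDC1) differed by under 0.25 log2 between the ICG-001 times, and 1 of those 5, MYB, was lower by at least 1 log2 after CTNNB1 siRNA. These limits decide who is counted: PPP1R1B had the same pattern with a time difference in DMSO of 0.93, just under 1 log2, 0.15 with time in ICG-001 and -2.30 after CTNNB1 siRNA. Of the 27 genes, 10 were lower by at least 1 log2 with ICG-001 at 24 h, and 2 of these, LGR5 and MYB, were also lower by at least 1 log2 after CTNNB1 siRNA. Under deposited scaling the 5 counts, 27, 5, 1, 10 and 2, were 25, 3, 1, 7 and 2. The DMSO arrays at 24 h enter both the drug and the time comparisons, so these counts share arrays.

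Ordered by deposited mean, the groups ran from DMSO at 24 h (355) through control siRNA (269), DMSO at 6 h (106), CTNNB1 siRNA (51.7) and ICG-001 at 24 h (50.2) to ICG-001 at 6 h (46.4). The array ranges of DMSO at 24 h and control siRNA overlapped, as did those of CTNNB1 siRNA and both ICG-001 groups. On the normalized log2 scale the order of the lower groups was less compact: CTNNB1 siRNA had 6.65 ± 0.20 (SD, n = 2), near DMSO at 6 h with 6.80 ± 0.13 (SD, n = 3) and above ICG-001 at 24 h with 5.77 ± 0.18 (SD, n = 3). An order that crosses the 2 experiments thus depended on the scaling. Within each array MYB stood at or above 54 to 60.6% of genes with ICG-001 at 24 h and 56 to 61% with ICG-001 at 6 h, against 88.2 to 88.9% with DMSO at 24 h and 72.1 to 74.9% with DMSO at 6 h. After CTNNB1 siRNA it stood at or above 70.6 to 73.9% of genes, against 84.4 to 90% after control siRNA.

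The dimmer probe set did not show the same pattern. It read 9.75, 11.78 and 4.4 with ICG-001 at 24 h, 12.59, 5.22 and 14.15 with ICG-001 at 6 h, 6.06, 12.75 and 11.64 with DMSO at 24 h, and 1.73, 9.35 and 7.88 with DMSO at 6 h. The drug groups all overlapped. After CTNNB1 siRNA it read 16.98 and 18.14, against 21.62 and 18.87 after control siRNA. Its log2 differences were -0.15 for ICG-001 at 24 h, 0.25 for ICG-001 at 6 h, -0.19 for CTNNB1 siRNA and 0.22 for time in DMSO. All its values lay near the pseudocount of 16, where differences are damped. Which MYB transcripts each probe set reads was not analysed here, and all other statements on MYB rest on the brighter one.

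MYBL1, the relative A-Myb that is needed for male meiosis in mice, was measured, while MYBL2 was not among the genes analysed. MYBL1 read 263.43, 236.92 and 258.94 with ICG-001 at 24 h, against 551.65, 529.19 and 527.71 with DMSO at 24 h. At 6 h it read 394.69, 341.85 and 312.55 with ICG-001, against 636.04, 574.21 and 629.24 with DMSO. The groups did not overlap at either time. With ICG-001 MYBL1 fell by 1.28 ± 0.08 log2 (SE) at 24 h (adjusted p = 4.47e-10, limma) and fell by 0.97 ± 0.08 at 6 h (adjusted p = 4.21e-08). Unlike MYB, it differed with time in DMSO by -0.23 (adjusted p = 0.117) and after CTNNB1 siRNA by 0.16 (adjusted p = 0.377), neither of which passed the test. With ICG-001 it was lower at 24 h than at 6 h, with a difference of -0.55 ± 0.08 (SE, adjusted p = 5.72e-05).

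Of 37 genes described in the literature as c-Myb targets, most of them in blood cells, 12 were measured: BCL2, BIRC5, CDK1, GSTM1, IGF1, IGF1R, KIT, LGR5, MEIS1, MPO, PRTN3 and SOX4. The table analysed held only probe sets that varied over the 16 arrays, with a coefficient of variation of at least 0.40, so the 25 other genes may simply have varied less. With ICG-001 at 24 h 6 of the 12 fell and 1 rose, where 11.3% of all genes fell and 9.22% rose (20.5% in all). At 6 h 6 fell and 0 rose by limma (1 rose at an unadjusted p under 0.05), where 8.23% of all genes fell and 5.56% rose (13.8% in all). After CTNNB1 siRNA 3 fell and 1 rose, where 5.83% of all genes fell and 6.19% rose (12% in all), and without control replicate 2 the 4 calls became 2. The median log2 difference of the 12 was -0.41 with ICG-001 at 24 h, -0.27 with ICG-001 at 6 h and -0.04 after CTNNB1 siRNA, against -0.02, -0.02 and 0.01 over all genes. With time, 2 rose and 1 fell in DMSO, where 4.69% of all genes rose and 3.94% fell (8.63% in all), and 2 rose and 2 fell in ICG-001, where 8.5% rose and 8.88% fell (17.4% in all). As deposited, without quantile normalization, more of the changed genes lay on the rising side. With ICG-001 at 24 h 6 targets then fell and 2 rose, where 7.33% of all genes fell and 14.1% rose (21.4% in all). At 6 h 4 fell and 1 rose, where 4.65% fell and 7.73% rose (12.4% in all). After CTNNB1 siRNA 3 fell and 1 rose, where 4.06% fell and 5.03% rose (9.09% in all). With time, 3 rose and 1 fell in DMSO, where 5.05% rose and 3.18% fell (8.23% in all), and 4 rose and 2 fell in ICG-001, where 11.9% rose and 7.35% fell (19.2% in all). The ICG-001 difference at 24 h minus that at 6 h was negative and past the test for 4 targets and positive for 0 by limma (0 also at an unadjusted p under 0.05), where 3.92% of all genes were more negative and 3.89% more positive (7.81% in all), and 4 and 0 as deposited, where it was 3.75% and 5.1% (8.86% in all). The list was written with earlier results of these arrays known and is not independent evidence of direction.

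LGR5, a receptor for R-spondins that marks stem cells of the mouse intestine, had the largest fall of the listed targets with ICG-001 at 24 h. It read 101.8, 105.59 and 103.67 with ICG-001 at 24 h, against 364.85, 359.23 and 369.22 with DMSO at 24 h. At 6 h it read 63.55, 67.44 and 60.12 with ICG-001, against 123.3, 144.38 and 130.37 with DMSO. No array of one group reached the other at either time. With ICG-001 LGR5 fell by 1.95 ± 0.12 log2 (SE) at 24 h (adjusted p = 1.66e-10) and fell by 0.96 ± 0.12 at 6 h (adjusted p = 4.2e-06), and it rose with time by 1.49 ± 0.12 in DMSO (adjusted p = 4.6e-08). It read 45.49 and 49.13 after CTNNB1 siRNA and 119.64 and 193.06 after control siRNA, a log2 difference of -1.2 ± 0.14 (SE, adjusted p = 1.08e-05). Where MYB stayed level with time in ICG-001, LGR5 rose by 0.50 ± 0.12 (adjusted p = 0.0042). Its second probe set differed less, with -0.47 for ICG-001 at 24 h, -0.08 at 6 h, -0.85 for CTNNB1 siRNA and 0.20 for time in DMSO.

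SOX4, a transcription factor of progenitor cells, had the same directions. It read 275.75, 275.26 and 304.55 with ICG-001 at 24 h, against 768.29, 690.09 and 702.14 with DMSO at 24 h, and 235.34, 236.96 and 202.14 with ICG-001 at 6 h, against 375.76, 416.33 and 427.69 with DMSO at 6 h. With ICG-001 the log2 difference of SOX4 was -1.54 ± 0.09 (SE) at 24 h (adjusted p = 1.63e-10) and -1.0 ± 0.09 at 6 h (adjusted p = 1.23e-07), and SOX4 rose by 0.79 ± 0.09 with time in DMSO (adjusted p = 6.87e-06). With time in ICG-001 the difference of 0.25 did not pass the test (adjusted p = 0.0772). A second, dimmer SOX4 probe set differed less, with -0.79 for ICG-001 at 24 h and -0.35 at 6 h. It gave -0.22 for CTNNB1 siRNA and 0.30 for time in DMSO. After CTNNB1 siRNA the kept probe set read 304.12 and 305.84, against 388.47 and 487.36 after control siRNA. That was a log2 difference of -0.49 ± 0.11 (adjusted p = 0.0079). Without control replicate 2, the array with the high MYB value, the difference was -0.30 and no longer passed (adjusted p = 0.121).

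KIT, the receptor for stem cell factor, moved against MYB in the siRNA experiment. It read 229.76 and 198.62 after CTNNB1 siRNA and 63.38 and 54.94 after control siRNA, a rise of 1.32 ± 0.19 log2 (SE, adjusted p = 7.57e-05). With ICG-001 it fell by 0.64 ± 0.15 at 24 h (42.15, 47.22 and 49.5 with ICG-001, against 62.3, 73.76 and 96.88 with DMSO, adjusted p = 0.00406) and fell by 1.04 ± 0.15 at 6 h (adjusted p = 4.26e-05). In DMSO the 24 h arrays differed from the 6 h arrays by -0.70 ± 0.15 (SE, adjusted p = 0.00459), the opposite direction to MYB.

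**Figure D2:**
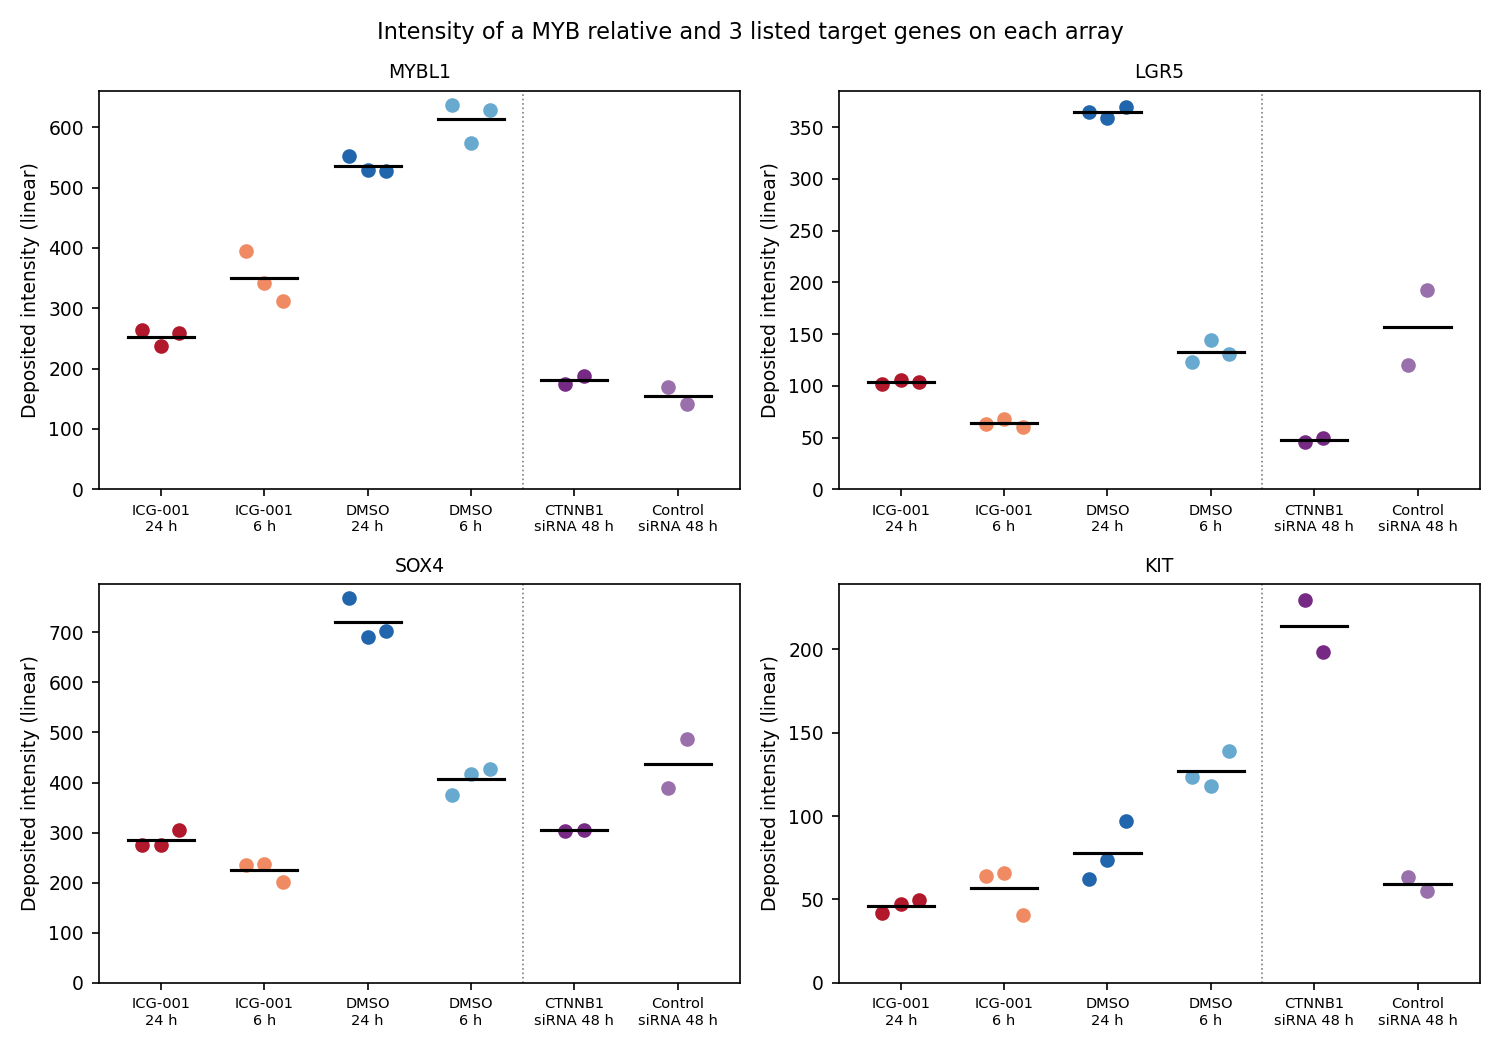
Deposited intensity (linear axes from 0) of MYBL1, LGR5, SOX4 and KIT on each of the 16 arrays, 1 point per array and a line at each group mean; the dotted line divides the drug arrays from the siRNA arrays. LGR5 and SOX4 are highest with DMSO at 24 h, with means of 364 and 720, whereas KIT is highest after CTNNB1 siRNA with a mean of 214.

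With ICG-001 MEIS1, a homeobox factor that works with HOX proteins, fell by 0.70 ± 0.13 log2 (SE) at 24 h (adjusted p = 0.000474) and fell by 0.66 ± 0.13 at 6 h (adjusted p = 0.00128). After CTNNB1 siRNA it read 65.29 and 70.82, against 104.83 and 127.72 after control siRNA, a log2 difference of -0.57 ± 0.16 (SE, adjusted p = 0.028). That call was lost without control replicate 2 (-0.45, adjusted p = 0.183), and also without replicate 1 (-0.52, adjusted p = 0.122) or replicate 2 (-0.60, adjusted p = 0.0736) of CTNNB1 siRNA.

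The measured cell cycle genes of the list, BIRC5 and CDK1, both fell with ICG-001 at 24 h. BIRC5, which encodes the survival and mitosis protein survivin, averaged 1420 ± 31.3 with ICG-001 and 2310 ± 97.1 with DMSO at 24 h (SD, n = 3 each), a log2 difference of -1.15 ± 0.05 (SE, adjusted p = 2.79e-12). CDK1, the kinase that drives entry into mitosis, averaged 299 ± 16.2 with ICG-001 and 441 ± 46.4 with DMSO at 24 h (SD, n = 3 each), a log2 difference of -0.79 ± 0.08 (SE, adjusted p = 1.89e-07). Their smaller differences at 6 h, -0.52 and -0.30, depended on the scaling, with deposited values of -0.10 for BIRC5 (adjusted p = 0.325) and -0.12 for CDK1 (adjusted p = 0.545). The 6 h call of CDK1 was also lost without DMSO replicate 2 (adjusted p = 0.0501). Neither gene differed with time in DMSO at the threshold (BIRC5 0.03, CDK1 -0.18).

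BCL2, an inhibitor of apoptosis, was the target that rose, by 0.62 ± 0.18 log2 (SE) with ICG-001 at 24 h (adjusted p = 0.0197). The call was lost when ICG-001 replicate 2 or 3 or DMSO replicate 1 or 2 was left out, with adjusted p between 0.0504 and 0.138. IGF1R, a growth factor receptor, rose by 0.35 ± 0.10 with time in ICG-001 (adjusted p = 0.0162). That call was lost without replicate 2 or 3 of ICG-001 at 24 h or at 6 h, with adjusted p between 0.0565 and 0.0964. GSTM1, IGF1, MPO and PRTN3 passed in none of the 5 comparisons after quantile normalization. As deposited, IGF1 rose by limma with ICG-001 at 24 h (0.80, adjusted p = 0.0274), at low intensities. BCL2 then also rose at 6 h (0.55, adjusted p = 0.0401). MPO and PRTN3, which encode granule proteins of myeloid cells, read at most 38.81 and 82 on any array.

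Of 21 listed cofactors and modifiers of c-Myb, 6 were measured. With ICG-001 at 24 h 2 rose and 1 fell, where 9.22% of all genes rose and 11.3% fell. At 6 h 1 rose and 2 fell, where 5.56% rose and 8.23% fell, and after CTNNB1 siRNA 1 rose and 2 fell, where 6.19% rose and 5.83% fell. As deposited, 1 rose and 0 fell after CTNNB1 siRNA, where 5.03% of all genes rose and 4.06% fell. The deposited counts with ICG-001 were as above, where 14.1% rose and 7.33% fell at 24 h. At 6 h those shares were 7.73% and 4.65%. PIM1, a kinase that phosphorylates c-Myb, rose with ICG-001, reading 2793.95, 2881.38 and 2932.55 at 24 h against 1290.88, 1162.76 and 1254.52 with DMSO. Its rise was 0.71 ± 0.05 log2 (SE) at 24 h (adjusted p = 2.18e-09, deposited scaling 1.21) and 0.75 ± 0.05 at 6 h (adjusted p = 1.89e-09, deposited scaling 1.2). After CTNNB1 siRNA it differed by -0.22 (adjusted p = 0.027), a call lost under deposited scaling (-0.16, adjusted p = 0.19) and without control replicate 1 or either CTNNB1 siRNA array. That call was also lost with the siRNA arrays normalized and fitted alone (-0.21, adjusted p = 0.226). With ICG-001 TRIM28, a corepressor, fell by 0.70 ± 0.07 at 24 h (adjusted p = 3.82e-07) and fell by 0.61 ± 0.07 at 6 h (adjusted p = 3.22e-06).

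CREBBP, which encodes the coactivator CBP to which ICG-001 is described to bind, was dim throughout. It read 1.65, 4.4 and 4.14 with ICG-001 at 6 h, against 21.26, 15.18 and 7.78 with DMSO at 6 h, and it fell by 0.61 ± 0.17 log2 (SE, adjusted p = 0.0144). The call was lost without ICG-001 replicate 1 (adjusted p = 0.0768), DMSO replicate 1 (adjusted p = 0.103) or DMSO replicate 2 (adjusted p = 0.0505), and at 24 h the difference was -0.17. After CTNNB1 siRNA it differed by -0.76 (adjusted p = 0.019), lost under deposited scaling (-0.55, adjusted p = 0.153), without control replicate 2 and without CTNNB1 siRNA replicate 2. That call was also lost with the siRNA arrays normalized and fitted alone (-0.54, adjusted p = 0.253). HIPK2, a nuclear kinase described to mark c-Myb for degradation, rose after CTNNB1 siRNA by 0.54 ± 0.15 (adjusted p = 0.0239) and with ICG-001 at 24 h by 0.36 ± 0.12 (adjusted p = 0.0436). The first call was lost without either control array or CTNNB1 siRNA replicate 1, and the second without replicate 2 or 3 of either group. The second was also lost with the drug arrays normalized and fitted alone (0.34, adjusted p = 0.0516). On the other HIPK2 probe sets the ICG-001 difference at 24 h ran from -0.12 to 0.47. The CTNNB1 siRNA difference ran from 0.34 to 0.65 on them. HIPK1, a related kinase, fell by 0.58 ± 0.16 with time in ICG-001 (adjusted p = 0.0134), lost without ICG-001 6 h replicate 1 or 2 or ICG-001 24 h replicate 3. The other HIPK1 probe sets, both dimmer, gave 0.08 and -0.04 there. KMT2A passed in no comparison.

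Of 28 listed regulators of MYB transcription 8 were measured. With ICG-001 at 24 h 5 fell and 1 rose, where 11.3% of all genes fell and 9.22% rose. At 6 h 3 fell and 1 rose, where 8.23% fell and 5.56% rose. After CTNNB1 siRNA 3 fell and 0 rose by limma (5 and 0 at an unadjusted p under 0.05), where 5.83% fell and 6.19% rose. As deposited, 3 fell and 2 rose with ICG-001 at 24 h, where 7.33% of all genes fell and 14.1% rose. At 6 h 2 fell and 2 rose, where 4.65% fell and 7.73% rose. After CTNNB1 siRNA 2 fell and 0 rose, where 4.06% fell and 5.03% rose. MEIS1, described above, belongs to both this list and the targets. With time in DMSO 0 of the 8 passed by limma, where 3.94% of all genes fell and 4.69% rose (8.63% in all). A count of 0 among 8 is close to that share. At an unadjusted p under 0.05, 1 of the 8, MEIS1, passed. Under deposited scaling 1 passed, where 8.23% of all genes did. E2F1, an activator of cell cycle genes, averaged 68.9 ± 8.24 with ICG-001 and 133 ± 13.3 with DMSO at 24 h (SD, n = 3 each), a log2 difference of -0.93 ± 0.14 (SE, adjusted p = 3.12e-05). With ICG-001 E2F3 fell by 0.66 ± 0.09 at 24 h (adjusted p = 1.02e-05) and fell by 0.41 ± 0.09 at 6 h (adjusted p = 0.00273). E2F1 did not pass with ICG-001 at 6 h (-0.19, adjusted p = 0.583) or after CTNNB1 siRNA (-0.23, adjusted p = 0.465). E2F3 did not pass after CTNNB1 siRNA (-0.33, adjusted p = 0.0568). Both belong to the family whose motif stands at bases 61 to 54 before the MYB start. Whether they act on MYB in these cells was not tested.

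TCF7L2, a DNA-binding partner of β-catenin whose family's motif stands at bases 33 to 27 before the MYB start, read 895.56 and 855.81 after CTNNB1 siRNA, against 1197.46 and 1185.75 after control siRNA. It fell by 0.54 ± 0.12 log2 (SE, adjusted p = 0.00452). Whether TCF7L2 acts on MYB in these cells was not tested. With ICG-001 TCF7L2 differed by -0.37 at 24 h (adjusted p = 0.00771) and by -0.33 at 6 h (adjusted p = 0.0246). Both calls were lost under deposited scaling (-0.19 and -0.21). The 24 h groups overlapped, and the 24 h call was also lost without ICG-001 replicate 3 or DMSO replicate 2, the 6 h call without ICG-001 replicate 3 or any 1 of the DMSO arrays. ESR1, the oestrogen receptor, rose with ICG-001 on its kept probe set by 0.57 ± 0.18 at 24 h (adjusted p = 0.0254) and by 0.63 ± 0.18 at 6 h (adjusted p = 0.0197). Its 2 dimmer probe sets gave -0.15 and -0.11 at 24 h and -0.02 and -0.10 at 6 h. The 24 h call was lost without any 1 of the ICG-001 arrays or DMSO replicate 2 or 3, and the 6 h call without ICG-001 replicate 1 or 2 or DMSO replicate 1. RELA, a subunit of NF-κB, differed by -0.16 ± 0.05 with ICG-001 at 24 h (adjusted p = 0.0216), but by 0.42 under deposited scaling (adjusted p = 7.98e-06), so its direction is not settled. E2F2 differed by -0.76 after CTNNB1 siRNA (adjusted p = 0.0255) at intensities of at most 19.09. The call was lost under deposited scaling (-0.50, adjusted p = 0.176) and without either control array or CTNNB1 siRNA replicate 1. It was also lost with the siRNA arrays normalized and fitted alone (-0.50, adjusted p = 0.419). EGR1 passed in none.

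Of 7 genes listed as neighbours of MYB in band 6q23.3, only ALDH8A1 and HBS1L were measured. Of these, 0 passed in any of the 5 comparisons by limma (0 also at an unadjusted p under 0.05). The share of all genes that passed ran from 8.63% with time in DMSO to 20.5% with ICG-001 at 24 h. With so few genes measured, a count of 0 is close to those shares and says little about the locus. ALDH8A1 and HBS1L were also dim, at most 29.27 and 20.95 on any array, so a change next to MYB would have been hard to see.

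**Figure D3:**
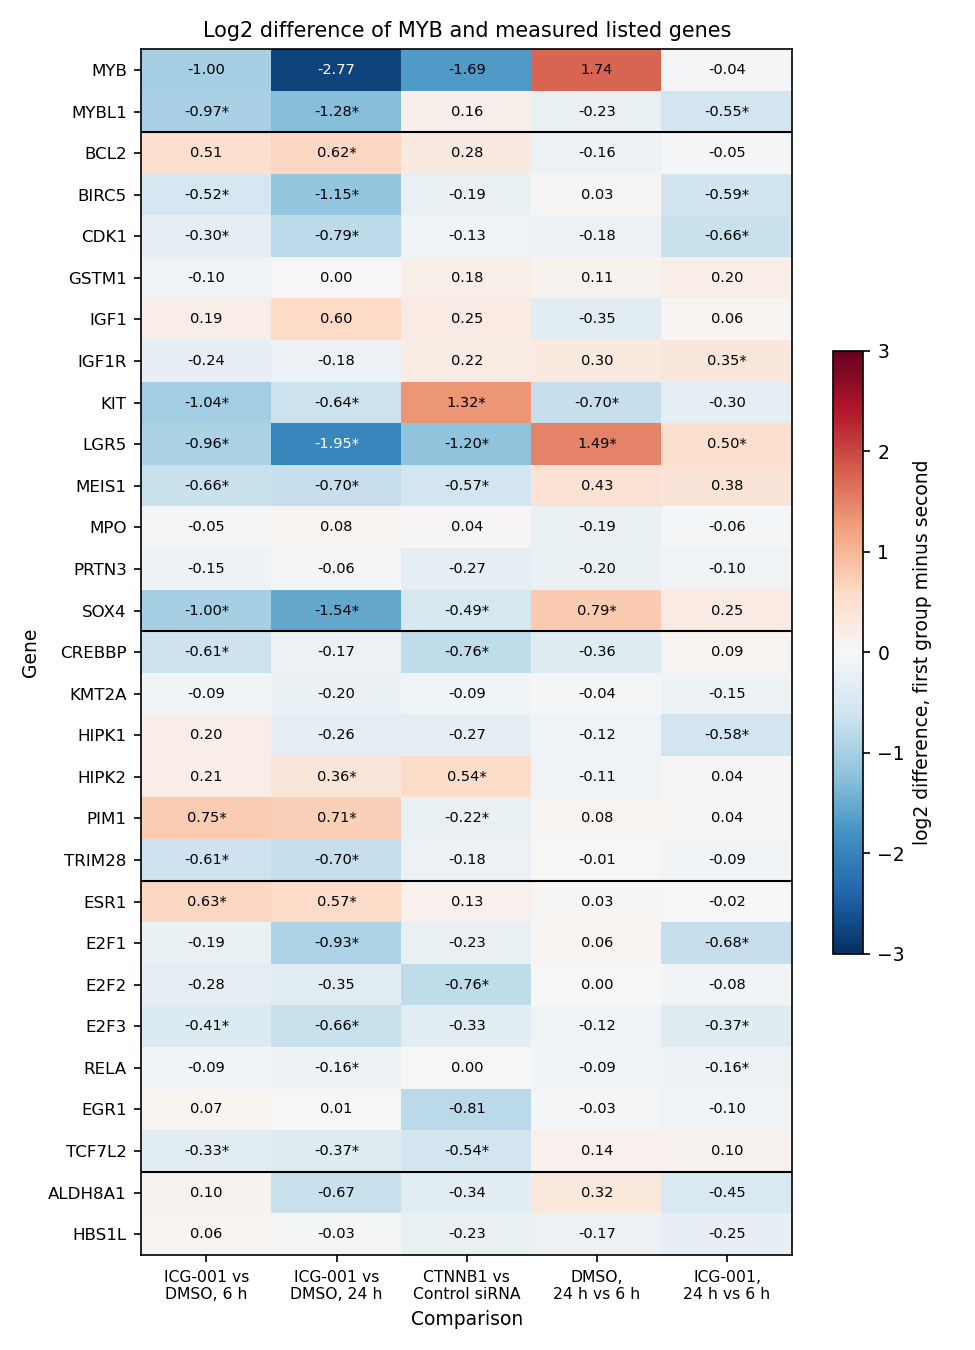
Log2 difference of log2(intensity + 16) after quantile normalization, for MYB, its relative MYBL1 and the measured genes of 4 lists (rows, divided by lines) in 5 comparisons (columns); the colour scale runs from -3 to 3, and an asterisk marks an adjusted p under 0.05 by limma. MYB carries no asterisk because it was not tested; of the targets, LGR5 and SOX4 have its signs in the first 4 columns with an asterisk in each, and KIT differs after CTNNB1 siRNA (1.32) and with time in DMSO (-0.70).

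The 8 genes with the most similar values to MYB were taken by Pearson correlation over the 16 arrays, among 2877 genes whose group means ranged over at least 1 log2 unit. They were PIK3R3 (r = 0.951), SOX4 (0.944), LGR5 (0.942), FOXA1 (0.934), PPP1R1B (0.932), GRAMD1B (0.925), SOWAHA (0.914) and GATA2 (0.896), and MRAP2 came next at 0.893. The 16 points share 6 groups and the normalization, so each r describes these arrays and has no p. When only the 12 drug arrays were used, 3 of the 8 (PPP1R1B, LGR5 and SOX4) were again among the 8 most similar.

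FOXA1, a pioneer transcription factor of endoderm, had the widest ICG-001 differences of the 8, level with LGR5 at 24 h, with -1.95 log2 at 24 h (177 with ICG-001, 605 with DMSO) and -1.52 at 6 h (94.3 with ICG-001, 262 with DMSO). With time it was higher by 1.2 in DMSO and by 0.77 in ICG-001. PPP1R1B, which encodes the phosphatase inhibitor DARPP-32, had the widest siRNA difference of the 8, at -2.30 (434 after CTNNB1 siRNA, 2010 after control siRNA), and a time difference of 0.93 in DMSO and 0.15 in ICG-001. GATA2, a zinc finger factor of blood progenitors, differed by -1.05 with ICG-001 at 24 h, -1.08 at 6 h and -1.47 after CTNNB1 siRNA. PIK3R3, a regulatory subunit of PI3 kinase, differed by -1.19, -0.93 and -0.68 in the same order. GRAMD1B, a sterol transport protein, differed by -1.82 with ICG-001 at 24 h, and SOWAHA by -1.49. The time differences of these genes were smaller than that of MYB. In DMSO they were 0.58 for PIK3R3, 0.86 for GRAMD1B, 0.28 for SOWAHA and 0.60 for GATA2. In ICG-001 they were 0.32, 0.42, 0.13 and 0.63 in the same order, so GATA2 differed about as much with time in both. MYB exceeded all 8 in the ICG-001 difference at 24 h and in the rise with time in DMSO.

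**Figure D4:**
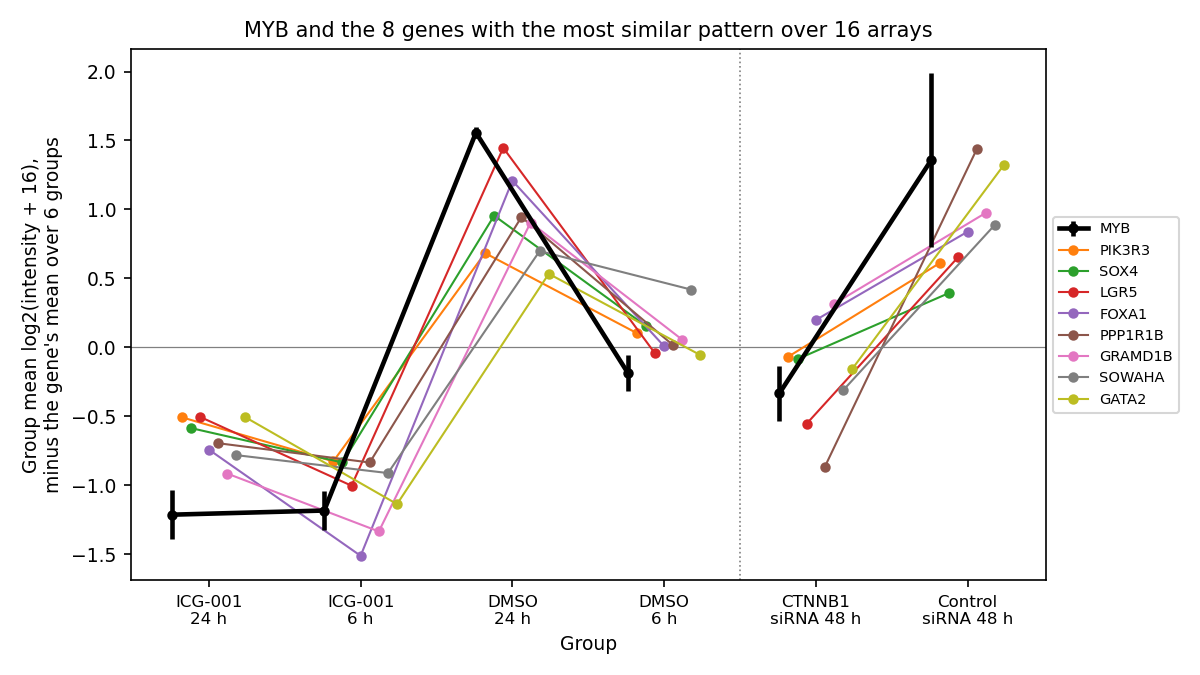
Group means of log2(intensity + 16) after quantile normalization, minus each gene's mean over the 6 groups, for MYB (black, bars 1 SD over the 3 or 2 arrays of a group) and the 8 genes with the highest Pearson r to it; lines join groups of 1 experiment. All 8 are lower in both ICG-001 groups than in DMSO at the same time; all 8 also have higher means at 24 h than at 6 h of ICG-001, by 0.13 (SOWAHA) to 0.77 (FOXA1), where MYB differs by -0.04.

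All 8 similar genes were higher on control siRNA replicate 2 than on replicate 1, by 0.19 to 0.79 log2, as MYB was by 0.89, whereas 49.8% of all genes were higher on replicate 2. The 8 were chosen with these arrays, so this is a description. Of the 27 genes higher by at least 1 log2 with time in DMSO, 16 were higher on that replicate. Promoters of 5 of the 8 were in the RefSeq table, and 0 held the E2F motif, 1 (FOXA1) the TCF/LEF motif and 3 (PIK3R3, FOXA1 and SOWAHA) a c-Myb motif in the 250 bases before the start. Of the 12 measured target genes 9 had a promoter there, and 4 (CDK1, IGF1, MEIS1 and PRTN3) held a c-Myb motif. Over all 27305 promoters the shares were 5.2% for E2F, 12.1% for TCF/LEF and 39.4% for c-Myb. With so few promoters these counts were not tested against those shares.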

How the data were processed

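RNA from cells named as AsPC-1 was read on 16 Affymetrix arrays. The deposited values are linear intensity values, 1 per probe set and array. How probes were summarised and arrays scaled before deposit is not stated in the labels. Of 9554 probe sets, 6442 had 1 gene in the platform annotation, 252 several and 2860 none, and 6432 symbols were matched to current ones. Array medians of log2(intensity + 16) differed by 0.64, so quantile normalization was applied over the 16 arrays. The probe set with the highest mean stood for a gene (5250 genes, 936 with more than 1 probe set). Intensities in the text are the deposited ones, so their ratios differ from the normalized log2 differences. At 24 h of ICG-001 the median difference over all genes was -0.02 after normalization and 0.09 as deposited.

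A model with 1 term per group was fitted with limma 3.58.1 in R 4.3.3 (eBayes with trend, two-sided, 10 residual and 7.84 prior degrees of freedom), and p-values were adjusted by Benjamini-Hochberg over the 5250 genes, with a threshold of 0.05. The script was tested on simulated data. The genes named are MYB, the measured relatives, up to 8 members per list that passed a test, and the 8 genes most correlated with MYB; a few others were named after their values were seen. MYB and the lists were chosen with earlier results of these data known. Same-numbered arrays of compared groups did not deviate together (r between -0.06 and 0.09), so replicate numbers were not taken as pairs. Alternatives were other scalings, pseudocounts of 1 and 64, the arrays of each experiment alone, a filter on intensities under 32, a replicate block, and each array left out.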

Additional observations from a re-analysis of the deposited data

Results flagged for a closer look

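The ICG-001 difference at 24 h minus that at 6 h passed the test in the limma fit for 4 of the 12 measured c-Myb target genes and for 1 regulator, E2F1, where 7.81% of all genes passed. Each was lowered more at 24 h. The difference between the times was -0.99 log2 for LGR5 (adjusted p = 0.00051), -0.62 for BIRC5 (adjusted p = 1.16e-05), -0.54 for SOX4 (adjusted p = 0.0114), -0.48 for CDK1 (adjusted p = 0.00755) and -0.74 for E2F1 (adjusted p = 0.022). LGR5 and SOX4 were higher at 24 h than at 6 h in DMSO, whereas BIRC5, CDK1 and E2F1 were lower at 24 h than at 6 h in ICG-001. The call of E2F1 was lost in 6 of 12 fits that left out 1 array and, like that of SOX4, without the intensity trend (adjusted p = 0.067 and 0.0652). Groups of 2 or 3 arrays were too small to look for single arrays that stand apart.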

How the results depend on the processing

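The MYB differences kept their direction on the brighter probe set under every scaling and pseudocount and with each array left out, except for time in ICG-001, which lay near 0 (-0.11 to 0.07 with arrays left out, 0.09 as deposited). For ICG-001 against DMSO at 24 h, the log2 difference of -2.77 became -2.49 under deposited scaling, -2.61 with arrays centred on their medians, -3.2 with a pseudocount of 1 and -2.03 with 64. At 6 h, the value of -1.0 became -1.25 with a pseudocount of 1 and -0.62 with 64. For time in DMSO, 1.74 became 1.61 as deposited, 1.59 with median centring, 1.9 and 1.39 with pseudocounts of 1 and 64, and 1.62 with the drug arrays normalized alone. For CTNNB1 siRNA, -1.69 became -2.0 both as deposited and with median centring, and -2.03 with the siRNA arrays normalized alone. Pseudocounts of 1 and 64 gave -1.86 and -1.32 there. On the dimmer probe set the values were 0.25 at 6 h, a reversed sign, -0.15 at 24 h, -0.19 for CTNNB1 siRNA and 0.22 for time in DMSO. With arrays left out in turn, the MYB differences ranged from -2.84 to -2.68 (24 h), -1.07 to -0.92 (6 h), -2.10 to -1.23 (CTNNB1 siRNA) and 1.71 to 1.82 (DMSO time). The count of 4 targets called after CTNNB1 siRNA ranged from 2, without control replicate 2, to 5. With the replicate number as a block, 7 targets were called at 6 h, 7 at 24 h and 4 after CTNNB1 siRNA, against 6, 7 and 4 without it, and the MYB differences of -1.0, -2.77, -1.69, 1.74 and -0.04 were as before; the numbers do not pair the arrays. RELA at 24 h turned to 0.42 as deposited and 0.29 with median centring. Of 493 refits of 55 named changes under other processing, 459 kept the call, 32 lost it and 2, both RELA, reversed it. The fits that left out 1 array are not in these counts, and they ended further calls. Only 3 of the 8 most similar genes were shared when the 12 drug arrays were used alone, and 6 to 7 under the other settings; the cause of these shifts was not tested. Dim probe sets near the pseudocount, such as CREBBP and the dimmer MYB probe set, limit what their differences can show.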
